A study of Mus musculus with 8 samples.

Results

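The genes of the nuclear pore complex were followed in type 7 to 8 follicles of the mouse ovary. They were taken by symbol from the deposited expression table: every gene named Nup followed by a number, with Ndc1, Pom121, Aaas, Seh1l, Sec13, Rae1, Tpr, Ranbp2 and Nupl2, and without pseudogenes. This gave 30 genes of the 55157 in the table. All animals were Kunming mice, an outbred stock, at postnatal day 21, sampled 24 hours after treatment with PMSG, a gonadotropin from mare serum that makes follicles grow. Control mice received PMSG and normal saline, and melatonin mice received PMSG and melatonin, with 4 libraries in each group. The labels do not say whether a library came from an individual animal or a pool, and the p-values given here reflect only how far these libraries spread, which may be technical in part. All 8 libraries carry the gonadotropin, so no level here is that of an unstimulated follicle.

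The nuclear pore complex is the channel through which proteins and RNA pass between nucleus and cytoplasm. A scaffold of Y-shaped complexes and an inner ring is anchored in the nuclear envelope by membrane proteins. It holds nucleoporins with phenylalanine-glycine repeats in the central channel, filaments on the cytoplasmic face and a basket on the nuclear face. In a growing follicle the complex is made both by dividing granulosa cells and by the oocyte, whose nucleus, the germinal vesicle, has a large pore-rich envelope. The RNA came from whole follicles, so fewer cells of a type and less RNA per cell cannot be told apart.

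Values are FPKM, fragments scaled to gene length and library size, so a comparison of levels between genes depends on the gene lengths used. The libraries held 17451111 to 23649205 fragments assigned to genes, as recovered from the values, and 29 of the 30 nuclear pore genes gave whole fragment numbers in every library. Markers of oocyte, granulosa and theca cells were detected. They bear on cell type, and whether the follicle stage fits the label was not tested. The oocyte markers, which included Gdf9 and Zp3, were all detected above 1 FPKM (12 of 12), with a summed level of 374 to 592 FPKM in control libraries and of 364 to 470 FPKM in melatonin libraries (exact permutation p = 0.371). The 8 granulosa markers summed to 7457 to 9828 FPKM in control libraries against 6285 to 7211 FPKM with melatonin, without overlap (exact permutation p = 0.0286, the smallest the design allows, and 0.286 adjusted over 10 marker lists). Most of that sum was Inha (means of 6597 and 5445 FPKM). Of the 8 granulosa markers, 2 were lower without overlap (beside 5.94% of all tested genes), and Nr5a2 had a higher mean in melatonin (171 and 181 FPKM). The 9 proliferation genes summed to 268 to 312 and 226 to 275 FPKM (exact permutation p = 0.0857). The 5 surface epithelium markers summed to 25.1 to 46.7 and 22.1 to 29.99 FPKM (exact permutation p = 0.0571, 0.286 adjusted), with Krt19 lower in melatonin without overlap. Theca markers reached 1 FPKM in 7 of 7 and summed to 1004 to 1375 and 615 to 1181 FPKM (exact permutation p = 0.171). Most of that sum was Hsd3b1 (means of 1038 and 834 FPKM). Of the 7 theca markers, 4 were lower at an unadjusted limma p under 0.05 (beside 9.74% of all tested genes) and 0 were higher. Among them Cyp17a1 was at 19.8 ± 3.24 and 8.84 ± 7.96 FPKM (SD, limma adjusted p = 0.175), with overlap, and Mgarp was lower without overlap. Leukocyte markers summed to 20.9 to 102 and 18.9 to 33.0 FPKM, with Ptprc below 1 FPKM. Red cell markers summed to 66.5, 891, 1545 and 162 FPKM in control replicates 1 to 4 and to 125 to 479 FPKM in melatonin (exact permutation p = 0.429). Every list had a lower mean sum in melatonin libraries, and the part of cell composition in the differences below was not tested.

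Levels in control follicles spanned a wide range among the nuclear pore genes. Rae1, which carries messenger RNA export factors to the pore, was highest at 30.5 ± 2.51 FPKM (SD, n = 4), followed by Sec13 at 26.5 ± 3.80 FPKM. Sec13 also serves in the COPII coat of secretory vesicles, so its transcript is not particular to the pore. The others lay between 6.51 ± 0.358 FPKM for Nup160 and 25.9 ± 1.89 FPKM for Nup62. Below them were Nupl2 at 2.47 ± 0.163 FPKM, Nup62cl at 1.42 ± 0.937 FPKM and Nup210l at 0.314 ± 0.0381 FPKM. In the order of control means, the ranges of 25 of 29 neighbouring pairs overlapped, so most steps in that order are within the spread between libraries. The steps without overlap were those from Nup214 to Nup155, from Nup37 to Nup98, from Nup160 to Nupl2 and from Nup62cl to Nup210l.

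**Figure D1:**
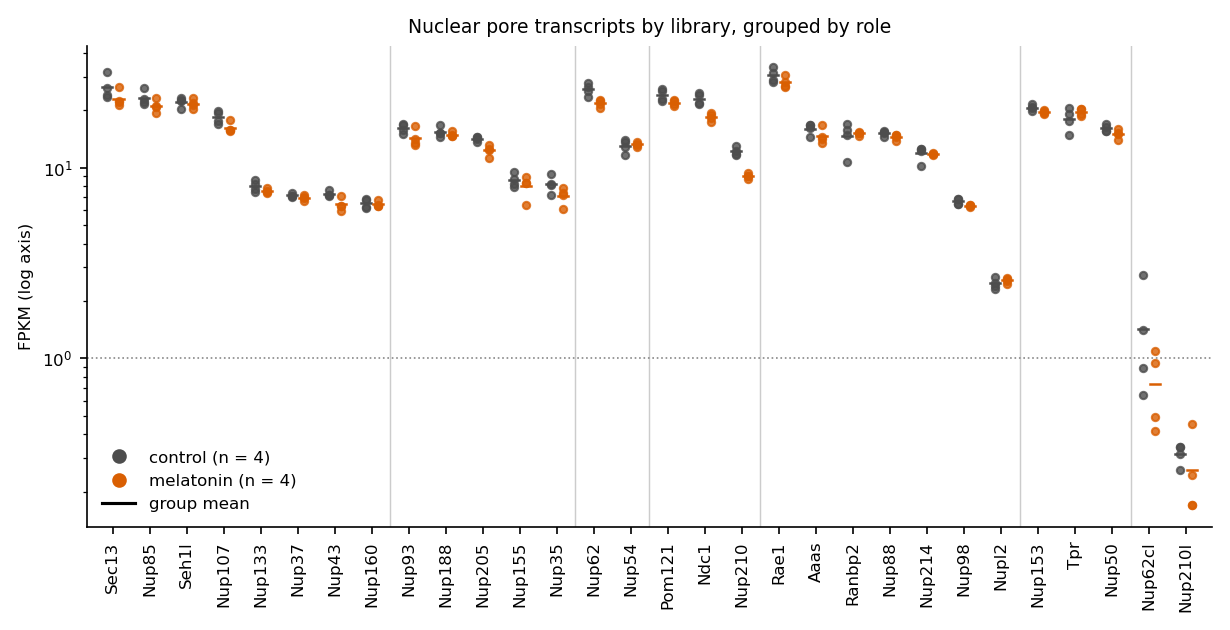
FPKM of 30 nuclear pore genes in each of the 8 libraries on a log axis, grouped by role from left (Y complex, inner ring, central channel, membrane, cytoplasmic face, nuclear basket, paralogs) and ordered by mean level within a role. Short lines are group means and the dotted line marks 1 FPKM, below which Nup210l and, in melatonin, Nup62cl have their means.

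Subunits of the same scaffold did not have equal FPKM. Exon lengths ran from 2560 bases for Nup43 to 8761 for Nup160 in the Y complex. In the inner ring they ran from 3366 for Nup35 to 11951 for Nup155. Whether these annotated lengths match the transcripts present was not tested. Within the Y complex, Sec13, Nup85, Seh1l and Nup107 were at 18.4 to 26.5 FPKM in control, while Nup133, Nup43, Nup37 and Nup160 were at 6.51 to 8.01 FPKM. Within the inner ring, Nup93, Nup188 and Nup205 were at 14.2 to 16.2 FPKM, and Nup155 and Nup35 at 8.60 and 8.18 FPKM. The central channel was represented by Nup62 and Nup54. Their usual partner, Nup58, appears in the table under its older symbol Nupl1, which the naming rule does not take. Nupl1 (chromosome 14, 60184612 to 60251431) had 4 fragments over all 8 libraries together. An annotated gene on the same strand, Gm49336, shares 1756 exon bases with it, or 48.8% of the Nupl1 exons, and had 5.93 ± 0.66 FPKM without melatonin and 5.52 ± 0.14 FPKM with it (limma adjusted p = 0.545). How fragments were assigned between these overlapping genes is not given in the sources used here, so no level of Nupl1 is reported.

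Melatonin was compared with control by limma on log2(FPKM + 1) over the 14738 genes whose mean reached 1 FPKM. Of the nuclear pore genes 29 entered, and Nup210l did not. No nuclear pore gene passed an adjusted p of 0.05 (0 of 29), and neither did any other gene (0% of those tested), while 2821 genes had an unadjusted p below 0.05. On recovered fragments limma-voom called 0 genes as well, and 2674 had an unadjusted p below 0.05. All differences given here are therefore values that did not pass.

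The nuclear pore genes leaned lower with melatonin. The log2 fold change was below 0 in 25 of 29, where 52.5% of all tested genes were below 0. The 25 include Nup62cl, which passed the filter through its control values. The median was -0.10 over the 29 and -0.01 over all tested genes. At an unadjusted p under 0.05, 7 were lower (24.1% of the 29, beside 9.74% of all tested genes) and 0 were higher (beside 9.4%). Genes with higher levels leaned lower in general, and among tested genes at 5 FPKM or more 13.8% were lower and 57.9% were below 0. In 5 genes the melatonin values all lay under the control values, beside 5.94% of all tested genes, and in 0 genes they all lay above, beside 5.79%. These 5 were Nup210, Ndc1, Nup62, Nup205 and Nup98.

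The counts rested partly on particular libraries. Without melatonin replicate 1, 4 genes were lower at an unadjusted p under 0.05 (beside 6.52% of all tested genes), and without melatonin replicate 2 also 4 (beside 7.97%). Groups without overlap numbered 12 without melatonin replicate 3 (beside 10.2% of all tested genes) and 8 without control replicate 1 (beside 8.18%). A count of groups without overlap can only stay or rise when a library is left out. On recovered fragments limma-voom gave 4 lower of 28 (beside 7.43% of all genes it tested), 0 higher (beside 12.005%) and 3 lower without overlap of its own values (beside 4.29%). The median over all genes was 0.0076 there. The summed level of the 30 genes was 423, 443, 450 and 420 FPKM in control replicates 1 to 4 and 400.98, 387, 416 and 391 FPKM in melatonin replicates 1 to 4. Melatonin replicate 3 lay closest to the control range, and melatonin replicate 2 was lowest. The highest of the 8 values fell in a control library for all 29 tested nuclear pore genes, including the 4 whose mean was higher in melatonin. For 10 genes it fell in control replicate 2 and for 11 in control replicate 3. Over all tested genes the highest value fell in a control library in 56.3%. The lowest value fell in a melatonin library for 21 of the 29 (72.4%, beside 47.4% of all tested genes). The SD of the log2 values was larger in control for 20 of the 29 (69.0%, beside 61.0%).

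Libraries of the groups also differed in their dependence on GC content and gene length. The Spearman correlation, across genes, between GC content and a library's deviation from the gene mean ran from -0.02 to 0.26 over the control libraries. Over the melatonin libraries it ran from -0.18 to -0.12. Among the 29 nuclear pore genes the log2 fold change had a Spearman rho of -0.20 with GC content and 0.36 with exon length, and over all tested genes the rho was -0.26 and 0.12. With both trends removed from each library, 26 of 29 genes were below 0, the median was -0.09, and 8 were lower at an unadjusted p under 0.05. Over all genes in that fit the median was -0.0073 and 9.06% were lower.

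**Figure D2:**
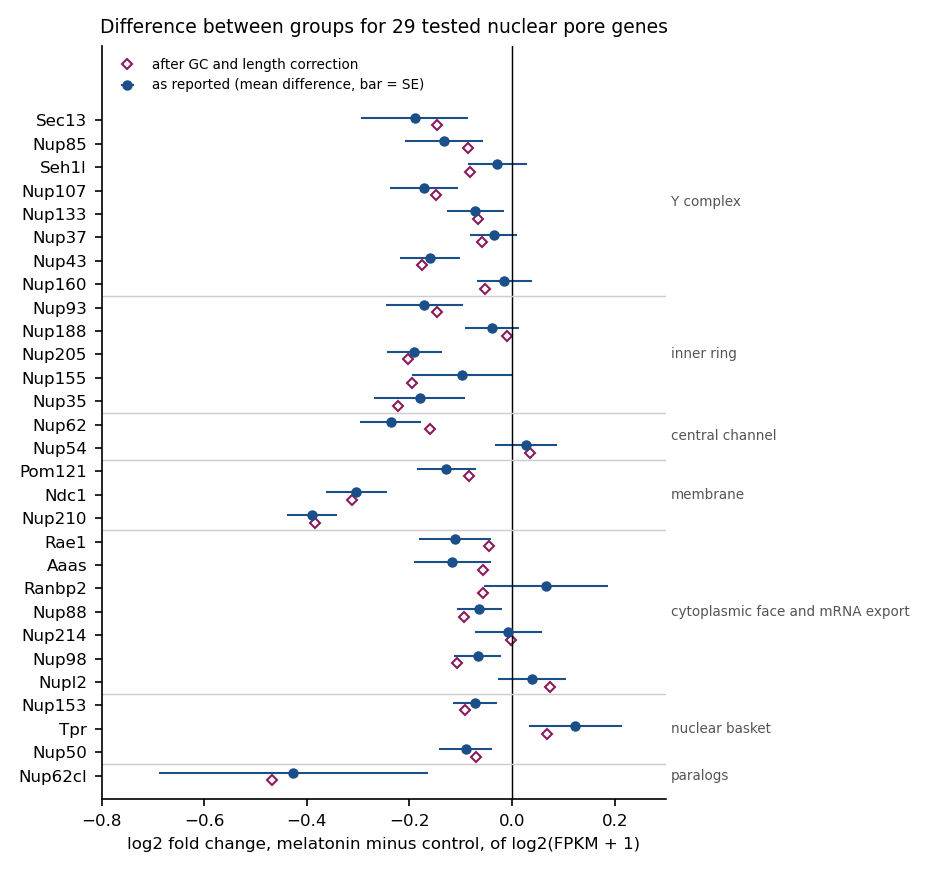
Log2 fold change (melatonin minus control, on log2(FPKM + 1)) of the 29 tested nuclear pore genes by role. Filled points with bars are the limma estimates and their standard errors, open diamonds the estimates with GC and length trends removed, and 25 of the 29 filled points lie left of 0.

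Of the 3 membrane nucleoporins, 2 were lower without overlap (beside 5.94% of all tested genes and 8.50% of those at 5 FPKM or more). The median log2 fold change of the 3 was -0.30. Nup210 (gp210; chromosome 6, 91013068 to 91116829) spans the envelope beside the pore, and its abundance is known to vary between cell types. It was at 11.6, 13.0, 12.3 and 11.9 FPKM in control replicates 1 to 4 and at 9.02, 9.39, 8.76 and 9.04 FPKM in melatonin replicates 1 to 4. Every melatonin value lay below every control value. The mean was 25.6% lower (12.2 ± 0.60 against 9.05 ± 0.26 FPKM, SD, n = 4 each), with a log2 fold change of -0.39 ± 0.05 SE (limma adjusted p = 0.120, and 0.0603 to 0.313 over the alternatives). Its log2 fold change was -0.39 with GC and length trends removed and -0.41 to -0.36 when each library was left out in turn. In each library between 1703 and 2830 fragments stood behind these values, so counting error is small beside the difference.

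Ndc1 (chromosome 4, 107367784 to 107416346) codes for a membrane protein that anchors the scaffold and is needed for pore assembly. Its values were 21.6, 24.1, 24.8 and 21.8 FPKM in control and 18.9, 17.4, 19.3 and 18.3 FPKM in melatonin, again without overlap. The mean was 19.9% lower, with a log2 fold change of -0.30 ± 0.06 SE (limma adjusted p = 0.120). Pom121, the membrane protein that starts pore assembly in interphase, was at 22.5, 26.0, 25.2 and 22.8 FPKM in control and at 21.7, 21.1, 22.7 and 22.4 FPKM in melatonin. Its groups overlapped, and the log2 fold change was -0.13 ± 0.06 SE (limma adjusted p = 0.268). Pom121 shares 665 exon bases, or 11.9% of its exons, with Nsun5 on the opposite strand, and use of strand is not given in the sources used here.

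Ratios of 2 genes within a library do not depend on how the library was scaled, and those given here were chosen after the values were seen, so they describe these libraries and support nothing further. The ratio of Nup210 to Pom121 ran from 0.487 to 0.520 over control libraries and from 0.386 to 0.445 over melatonin libraries. That of Ndc1 to Pom121 ran from 0.928 to 0.984 and from 0.817 to 0.873. In both cases all melatonin libraries lay below all control libraries. Nup210l, a paralog of Nup210 known mainly from testis, had 21 to 55 fragments per library and was not tested.

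**Figure D3:**
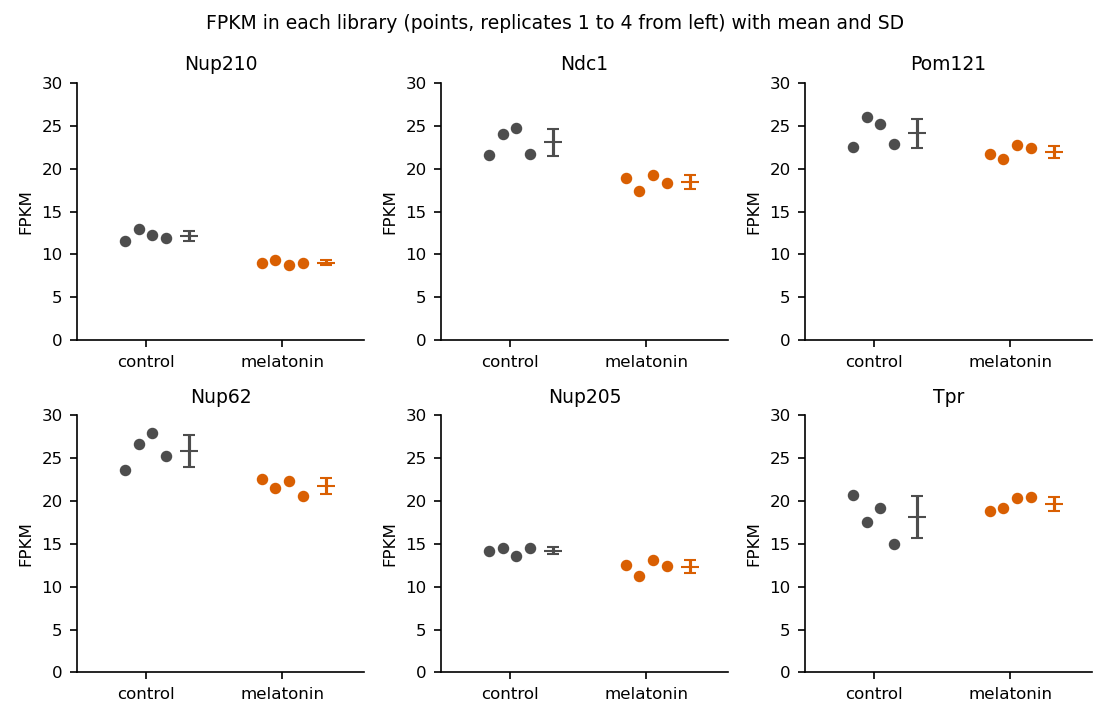
FPKM of Nup210, Ndc1, Pom121, Nup62, Nup205 and Tpr in the 8 libraries, each panel starting at 0. Points are libraries and the marks beside them the mean with SD (n = 4), and the groups do not overlap for Nup210, Ndc1, Nup62 and Nup205.

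In the central channel the repeat-bearing partners differed. Nup62 (chromosome 7, 44816088 to 44830812), the core channel nucleoporin, was at 23.6, 26.6, 28.0 and 25.2 FPKM in control and 22.6, 21.5, 22.3 and 20.6 FPKM in melatonin. Melatonin replicate 1 and control replicate 1 were the nearest values of the groups, which did not overlap. The mean was 15.8% lower and the log2 fold change was -0.24 ± 0.06 SE (limma adjusted p = 0.142), or -0.16 with GC and length trends removed. Nup54, which binds Nup62, was at 11.6, 13.6, 14.0 and 12.9 FPKM in control and 13.7, 12.9, 13.3 and 13.2 FPKM in melatonin. Here the groups overlapped throughout (log2 fold change 0.03 ± 0.06 SE, limma adjusted p = 0.831), and leaving out control replicate 1 gave -0.02. Nup62 stood at 1.95 to 2.03 times Nup54 in control libraries, against 1.56 to 1.68 times in melatonin libraries. Nup62 has a GC content of 57.4% and Nup54 of 45.5% in their longest transcripts. Nup62 shares 97 exon bases with Il4i1 on the same strand, a gene at 0.0924 FPKM in control. It also shares 82 with Atf5 on the opposite strand, which had 12.7 FPKM in control and 11.1 FPKM with melatonin.

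Of the inner ring genes, all 5 had a log2 fold change below 0 (median -0.17). Nup205 and Nup93 were lower at an unadjusted p under 0.05, 2 of 5 (beside 9.74% of all tested genes and 13.8% of those at 5 FPKM or more). Nup205 (chromosome 6, 35177421 to 35247596), a large scaffold subunit, was at 14.2, 14.5, 13.6 and 14.5 FPKM in control and 12.5, 11.3, 13.2 and 12.4 FPKM in melatonin. Its groups did not overlap, with a log2 fold change of -0.19 ± 0.05 SE (limma adjusted p = 0.148). Nup188, its close structural relative, was at 15.4 ± 0.94 and 14.9 ± 0.45 FPKM (log2 fold change -0.04 ± 0.05 SE, limma adjusted p = 0.714). The groups overlapped for Nup188, as they did for Nup93, the linker of the ring (16.2 ± 0.90 against 14.3 ± 1.504 FPKM). Nup155, which contacts the membrane, had its lowest value, 6.41 FPKM, in melatonin replicate 2 and 8.28 to 8.97 FPKM in the other melatonin libraries. Nup35, which also binds the membrane, was at 8.18 ± 0.84 and 7.10 ± 0.73 FPKM.

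The Y complex, the outer scaffold, was below 0 in 8 of the 8 genes listed for it (median -0.10). Nup98, part of whose product is Nup96, was listed with the cytoplasmic face and is not among these 8. Nup107 and Nup43 were lower at an unadjusted p under 0.05, 2 of 8 (beside 9.74% of all tested genes and 13.8% of those at 5 FPKM or more). Nup107 (chromosome 10, 117750621 to 117792705), the stem subunit that joins Nup133, was at 17.0, 19.4, 17.5 and 19.8 FPKM in control. In melatonin it was at 15.7, 15.7, 17.7 and 15.6 FPKM. Replicate 3 stood above the other melatonin libraries and inside the control range (log2 fold change -0.17 ± 0.07 SE, limma adjusted p = 0.220). Nup43 (chromosome 10, 7667503 to 7678881), a propeller protein of the short arm, was at 7.20, 7.23, 7.64 and 7.09 FPKM in control and 6.33, 5.95, 6.34 and 7.10 FPKM in melatonin. Its overlap came from melatonin replicate 4, which lay just above the lowest control value (log2 fold change -0.16 ± 0.06 SE, limma adjusted p = 0.207). The remaining Y complex genes had log2 fold changes from -0.19 for Sec13 to -0.01 for Nup160. Seh1l, which is shared with a regulator of amino acid signalling to mTORC1, was at 22.2 ± 1.27 and 21.7 ± 1.16 FPKM.

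On the cytoplasmic face 0 of 7 genes had an unadjusted p below 0.05 by limma (beside 9.74% of all tested genes lower and 9.4% higher). By limma-voom none of them passed the adjusted threshold. The median log2 fold change was -0.06. Ranbp2 (Nup358; chromosome 10, 58446920 to 58494356) forms the cytoplasmic filaments and acts in SUMO attachment. It was at 16.9, 14.9, 15.9 and 10.7 FPKM in control and 15.2, 14.7, 15.3 and 15.4 FPKM in melatonin, so control replicate 4 stood below the other libraries. The log2 fold change was 0.07 ± 0.12 SE (limma adjusted p = 0.794), -0.07 without control replicate 4 and -0.06 with GC and length trends removed. The table also holds 12 Ranbp2 pseudogenes, 11 of them listed at 0 in every library and the other with 1 fragment in all.

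Nupl2 (chromosome 5, 24164963 to 24184013), which binds the export factor Gle1, was at 2.49, 2.40, 2.69 and 2.30 FPKM in control and 2.56, 2.44, 2.62 and 2.63 FPKM in melatonin. These groups overlapped (log2 fold change 0.04 ± 0.07 SE, limma adjusted p = 0.779), and after quantile normalization the log2 fold change was -0.002. Nup98 codes for a precursor that is cleaved into Nup98 and Nup96. It was at 6.49, 6.89, 6.85 and 6.46 FPKM in control and 6.36, 6.33, 6.202 and 6.40 FPKM in melatonin. Those groups did not overlap, but by a small margin (log2 fold change -0.07 ± 0.05 SE, limma adjusted p = 0.453). Nup214 and Nup88, which bind each other, were at 11.9 ± 1.10 and 15.2 ± 0.45 FPKM in control and at 11.8 ± 0.16 and 14.5 ± 0.46 FPKM in melatonin. Aaas, the gene of the protein ALADIN, which Ndc1 holds at the pore, was at 16.05 ± 1.04 and 14.7 ± 1.43 FPKM, and Rae1 at 30.5 ± 2.51 and 28.1 ± 1.84 FPKM.

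Of the 3 nuclear basket genes, 2 had a log2 fold change below 0 (beside 52.5% of all tested genes). None had an unadjusted p below 0.05 by limma (beside 9.74% of all tested genes lower and 9.4% higher). None passed the adjusted threshold by limma-voom. Tpr (chromosome 1, 150392838 to 150449935), the coiled-coil filament of the basket, was at 20.7, 17.6, 19.1 and 14.9 FPKM in control and 18.8, 19.2, 20.3 and 20.4 FPKM in melatonin. All 4 melatonin values lay inside the control range, whose lowest value was again control replicate 4 (log2 fold change 0.12 ± 0.09 SE, limma adjusted p = 0.486, and 0.04 without that library). Nup153, which anchors the basket, was at 20.6 ± 0.76 and 19.6 ± 0.39 FPKM, and Nup50, a cofactor of importin-driven import, at 16.1 ± 0.68 and 15.1 ± 0.79 FPKM. Ranbp2 and Tpr have exon lengths of 11728 and 10496 bases, among the longest of the 30 genes, with a GC content of 40.6% and 45.0%. Nup98, Nup155 and Nup210 are of like length (12602, 11951 and 10474 bases), with log2 fold changes of -0.07, -0.10 and -0.39.

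Nup62cl, a paralog of the carboxyl-terminal part of Nup62, was the most variable tested gene of the 30. It was at 1.41, 0.641, 2.74 and 0.894 FPKM in control and 0.492, 0.416, 0.941 and 1.09 FPKM in melatonin, from 20 to 135 fragments per library. Its highest value was in control replicate 3, the groups overlapped, and the log2 fold change was -0.43 ± 0.26 SE (limma adjusted p = 0.406). This gene passed the filter of 1 FPKM through the control group, where its mean is above 1.

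**Figure D4:**
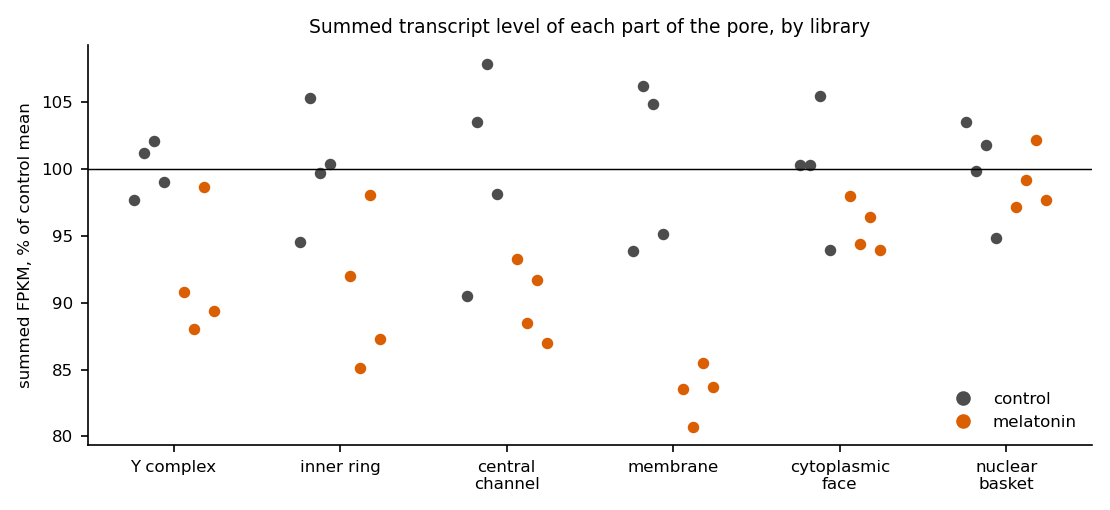
Summed FPKM of each part of the pore in every library, as a percentage of the mean of the 4 control libraries for that part. The axis does not start at 0, and the membrane group is the part in which all melatonin libraries lie below all control libraries.

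Summed by part, the membrane genes reached 55.7 to 63.1 FPKM in control libraries against 47.9 to 50.8 FPKM with melatonin, without overlap. The Y complex was at 117 to 122 and 105 to 118 FPKM, the inner ring at 59.1 to 65.9 and 53.2 to 61.3 FPKM, and the central channel at 35.2 to 41.9 and 33.8 to 36.3 FPKM. In these 3 parts the groups overlapped through melatonin replicate 3 or control replicate 1. The cytoplasmic face was at 91.5 to 103 and 91.5 to 95.4 FPKM and the basket at 52.0 to 56.7 and 53.3 to 56.0 FPKM, both with melatonin inside the control range. Whether the parts differ from each other in their response was not tested.

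Promoter sequences are shown for 3 genes that were lower without overlap or at an unadjusted p under 0.05 and for Tpr, which was not. RefSeq windows (GRCm38.p6) of 250 bases before to 50 bases after the start site were found for 25 of the 30 genes. Those of Ndc1 and Nup205 were not printed, as the bases before their RefSeq start run 263 and 195 bases past the annotated gene start. The bases before the annotated start are printed 5′ to 3′ in the direction of transcription, and capitals mark the motifs, searched on both strands. The letters were CCAAT for the CCAAT box, GGGCGG for the GC box, CCGGAAG for the ETS core and CACGTG for the E-box. They were TGACGT for the CRE core, AAGATGG for the YY1 core and TTTCCCGC, TTTGGCGC, TTTCGCGC or TTTGCCGC for the E2F site. The palindromic NRF1 core was searched as well and is the run of capitals nearest the 3′ end in Nup62.
Nup210, chr6:91116830-91117076, minus strand: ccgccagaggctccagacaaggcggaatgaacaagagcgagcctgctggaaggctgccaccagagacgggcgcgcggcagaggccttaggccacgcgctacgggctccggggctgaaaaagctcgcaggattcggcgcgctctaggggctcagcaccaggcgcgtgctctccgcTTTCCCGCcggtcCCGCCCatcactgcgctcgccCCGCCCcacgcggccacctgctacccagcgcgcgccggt
Nup62, chr7:44815838-44816087, plus strand: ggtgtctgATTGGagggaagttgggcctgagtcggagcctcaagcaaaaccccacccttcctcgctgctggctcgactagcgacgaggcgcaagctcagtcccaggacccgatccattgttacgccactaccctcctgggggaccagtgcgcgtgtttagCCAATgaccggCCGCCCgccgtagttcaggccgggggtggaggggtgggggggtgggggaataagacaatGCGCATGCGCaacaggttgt
Nup107, chr10:117792706-117792955, minus strand: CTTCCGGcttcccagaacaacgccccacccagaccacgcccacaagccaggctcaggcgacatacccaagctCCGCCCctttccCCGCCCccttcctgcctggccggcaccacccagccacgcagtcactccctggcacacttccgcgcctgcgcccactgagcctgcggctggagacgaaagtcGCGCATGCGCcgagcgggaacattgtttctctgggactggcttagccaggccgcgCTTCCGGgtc
Tpr, chr1:150392588-150392837, plus strand: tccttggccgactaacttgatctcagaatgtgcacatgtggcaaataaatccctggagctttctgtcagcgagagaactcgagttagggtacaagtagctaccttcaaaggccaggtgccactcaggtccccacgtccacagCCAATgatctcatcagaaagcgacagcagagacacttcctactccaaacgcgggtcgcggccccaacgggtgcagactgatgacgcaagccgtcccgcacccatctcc

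The capitals in Nup210 are an E2F site followed by GC boxes on the reverse strand, and it was the only member of the 25 with E2F letters in its window (4%, beside 4.90% of tested genes with a window). The NRF1 core stood in the windows of Nup50, Nup62 and Nup107, or 12% of the 25, beside 2.39% of 9615 tested genes with a window. Windows of the 25 genes held a median of 27 CG pairs, beside 22 for tested genes, with the richest window taken per gene. The NRF1 core itself holds CG pairs, and the part of this difference in its share was not tested. NRF1 is a transcription factor of housekeeping and mitochondrial genes. GC boxes stood in the windows of 17 of 25 genes (68%, beside 69.1% of tested genes) and CCAAT letters in those of 11 (44%, beside 43.2%). The ETS core was in 7 (28%, beside 20.5%), the CRE core, a cyclic AMP response motif, in 5 (20%, beside 13.2%) and the E-box in 4 (16%, beside 11.9%). Over all 32851 windows in the RefSeq table the E2F, NRF1, GC box, CCAAT, ETS, CRE and E-box letters were in 2.26%, 0.971%, 35.7%, 37.4%, 8.86%, 7.51% and 7.15%. These last are shares of windows, not of genes, and a gene can have several windows. The YY1 core was in the windows of 4 genes (16%, beside 8.58% of tested genes and 6.34% of all windows). A palindrome bound by KAISO was in the windows of 0 of 25 genes (beside 1.196% of tested genes). Letters of the same motif can overlap themselves, as in the CRE palindrome, and were counted once per gene, in any of its windows. Such matches describe the sequence and do not show a bound factor.

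Genes that work with the pore were also examined, in 6 lists with 59 genes, all of them tested. None passed the adjusted threshold (limma, 0 of 59, and limma-voom called 0 genes in all). At an unadjusted p under 0.05, 13 were lower (beside 9.74% of all tested genes and 13.8% of those at 5 FPKM or more) and 1 was higher (beside 9.4%). The log2 fold change was below 0 in 43 of 59 (beside 52.5% and 57.9%), with a median of -0.06. In 6 of them the melatonin values all lay below the control values (beside 5.94% and 8.50%).

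Ipo5, an importin, was at 40.0 ± 1.34 and 34.5 ± 1.09 FPKM (log2 fold change -0.21 ± 0.04 SE, limma adjusted p = 0.121). Kpnb1, importin beta, was at 56.2 ± 1.67 and 50.6 ± 2.30 FPKM, and neither gene overlapped between the groups. Of the 17 import receptors, 3 were lower at an unadjusted p under 0.05 and 0 higher (beside 9.74% and 9.4% of all tested genes). Among tested genes at 5 FPKM or more the shares were 13.8% and 8.93%. In the envelope and lamina list 5 of 12 were lower and 0 higher, beside the same shares. Its leading genes were Banf1, which bridges chromatin and envelope (145 ± 4.24 and 125 ± 6.001 FPKM, limma adjusted p = 0.122), and Emd, emerin (24.8 ± 0.42 and 21.2 ± 1.45 FPKM, limma adjusted p = 0.138).

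The Ran cycle, which gives transport its direction, was below 0 in 6 of 6 genes. Of these, 3 were lower at an unadjusted p under 0.05 (beside 9.74% of all tested genes and 13.8% of those at 5 FPKM or more). Rcc1, the exchange factor of Ran on chromatin, was at 12.9 ± 1.04 and 10.5 ± 1.12 FPKM, and Nutf2, the carrier that returns Ran to the nucleus, at 23.5 ± 0.96 and 19.9 ± 1.998 FPKM. Of 7 exportins 1 was lower (beside the same shares), Cse1l, which recycles importin alpha (24.4 ± 1.09 and 21.3 ± 1.39 FPKM). Xpo5, which exports microRNA precursors, was at 14.1 ± 0.67 and 13.4 ± 0.56 FPKM. Among 12 messenger RNA export genes 1 was lower and 1 higher (beside 9.74% and 9.4% of all tested genes). The lower was the adaptor Alyref (22.1 ± 1.97 and 18.8 ± 0.92 FPKM). The higher was Thoc2 of the THO complex, at 13.8, 11.5, 11.6 and 7.86 FPKM in control and 14.2, 13.7, 14.7 and 14.8 FPKM in melatonin, with control replicate 4 lowest as for Ranbp2 and Tpr. Its log2 fold change of 0.36 (limma adjusted p = 0.220) was 0.21 without that library and 0.19 with GC and length trends removed, where its unadjusted limma p was 0.117. Of 5 genes of pore assembly and SUMO removal, 0 had an unadjusted p below 0.05 by limma (beside 9.74% of all tested genes lower and 9.4% higher). None passed the adjusted threshold by limma-voom. The leading ones were Tor1a (27.9 ± 2.50 and 25.1 ± 1.59 FPKM) and Senp1 (5.79 ± 0.26 and 5.30 ± 0.36 FPKM).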

How the data were processed

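Messenger RNA was measured in 8 libraries, 4 control and 4 melatonin, grouped by their titles. Per the submitters' processing notes, the tools included HISAT2 2.0.5 and the genome build was mm10. The deposited values are FPKM per gene, per the file headers; which tool counted the fragments, with which annotation and strand setting, is not given in the sources used here. Between the sample files and the table of the whole series, 0 values differed. An FPKM value depends on the rest of its library.

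The 14738 genes whose mean reached 1 FPKM went into limma 3.58.1 (R 4.3.3) as log2(FPKM + 1), with an intensity trend and group as the only term, with Benjamini-Hochberg adjustment over all of them. Fold changes on this scale understate those of low genes. Gene models were GENCODE release M21 (mm10), which matched 54495 of 55157 identifiers. With their exon lengths 98.7% to 98.9% of values of up to 30 fragments were whole within 0.05, and 13761 tested genes gave whole fragments, which limma-voom used. Seh1l did not.

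The members and lists were chosen with earlier results of these data known. As no member passed, full statistics went to the 6 lower and the 4 higher members that led by unadjusted p (up to 6 a side), and 2 genes lead each transport or envelope list by the same measure. Other members are given by level, and Pom121, Nup188, Nup98 and Nup62cl were given statistics after their values were seen. In simulated data for this comparison over 13761 genes with 200 changed, limma recovered 47.8% at a log2 change of 0.5, 91.0% at 1 and 100% at 2, with 5 false calls. The simulated fragments were drawn independently with an assumed spread and without the GC and length trends of the real libraries. Whether that spread matches the real libraries was not tested, so these shares are not the recovery in these data. Alternatives were quantile and median-ratio scaling, filters of 0 and 5 FPKM, a pseudocount of 0.1, the replicate block, removal of GC and exon length trends (splines with 5 degrees of freedom), limma-voom and leaving out each library. Tables and figures used Python 3.11.15, pandas 2.3.3, scipy 1.17.1 and matplotlib 3.10.9.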

Additional observations from a re-analysis of the deposited data

Results flagged for a closer look

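Nup214, which sits on the cytoplasmic face, was at 10.3 FPKM in control replicate 1 and at 12.2 to 12.6 FPKM in the other control libraries. Nup107, of the Y complex, was at 17.7 FPKM in melatonin replicate 3 and at 15.6 to 15.7 FPKM in the other melatonin libraries. In both cases 1 library stood far from the other 3 of its group (Dixon's gap test). The test was run on 60 groups of 4 values, and chance flags about 1 in 20 groups. No cause was tested.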

How the results depend on the processing

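Over 29 nuclear pore genes and all alternatives, 449 of 461 log2 fold changes kept their direction, 12 in 6 genes did not, and 0 passed the threshold (smallest limma adjusted p = 0.0603). The values with changed direction were -0.057 for Ranbp2 after the GC and length correction, 0.013 for Nup214 by limma-voom, and 0.011 for Seh1l and -0.0023 for Nupl2 after quantile normalization. Leaving out each library gave -0.066 to 0.14 for Ranbp2, -0.071 to 0.019 for Nup214, -0.037 to 0.0060 for Nup160 and -0.022 to 0.060 for Nup54. The cause was not tested. The 12 named transport and envelope genes kept their direction in 191 of 191 values. The count of lower genes at an unadjusted p under 0.05 was 7, 4 by limma-voom and 4 to 9 when a library was left out. The count of lower genes without overlap was 5, 3 by limma-voom and 5 to 12 when a library was left out. Leaving out a library can only keep or raise this count, so the lower end of that range was set in advance. The median log2 fold change was -0.12 to -0.07 when a library was left out. Of all genes, 1 passed the adjusted threshold without a filter on low values, and 0 to 1 when a library was left out, none of them a nuclear pore gene. With the replicate block 0 nuclear pore genes were called. Same-numbered libraries correlated at 0.001, -0.10, 0.15 and 0.04 in their deviations from the group means, and 3 of 8 libraries correlated best with their own number, so the numbers were not taken to pair them. Nup210l, Nup62cl and Nupl2 rest on the fewest fragments.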
